A study of Mus musculus with 8 samples.

Results

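Flt3, Kit, Ly6d, Cd93 and Ptprc encode surface proteins by which the earliest lymphoid progenitors of mouse bone marrow are recognised and sorted. The 5 genes were taken by symbol, with every probe set that named one of them and no other gene, which gave 11 probe sets of the 45101 on the array. Flt3 and Ly6d had 1 probe set each, Kit and Ptprc 2 each and Cd93 5, and the 5 genes stood among 18193 named genes. On the GRCm38.p6 assembly Flt3 lies on chromosome 5 from 147330741 to 147400489 and Kit on chromosome 5 from 75574987 to 75656722. Ly6d lies on chromosome 15 from 74762056 to 74763567, Cd93 on chromosome 2 from 148436651 to 148443535 and Ptprc on chromosome 1 from 138062859 to 138175756. The exons to which the probe sets map were not analysed here.

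FLT3 and KIT are related receptor tyrosine kinases. FLT3 ligand sustains multipotent and lymphoid progenitors, and stem cell factor, the ligand of KIT, sustains stem cells and early progenitors, with KIT surface protein lower on common lymphoid progenitors than on stem cells. CD93, also known as the AA4.1 antigen, is a C-type lectin-like glycoprotein carried by early B-lineage cells, many progenitors, myeloid cells and endothelium. LY6D is a small lipid-anchored protein whose appearance on common lymphoid progenitors marks cells biased to the B lineage. Ptprc encodes CD45, the receptor tyrosine phosphatase of all nucleated blood cells, and the isoform that holds all its variable exons is B220, a B-cell marker.

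The cells were common lymphoid progenitors from bone marrow of C57bl/6 mice aged 10 to 13 weeks, and the sort kept cells without lineage markers or LY6D that carried FLT3 and CD127, the IL-7 receptor chain. The 8 arrays held cells that were wild type (WT, n = 2), lacked HEB (HEB_KO, n = 2) or lacked E2A (E2A_KO, n = 4), and carried no treatment. HEB, the product of Tcf12, and E2A, the products of Tcf3, are E proteins, transcription factors that bind the E-box motif as dimers. Each sort pooled several marrows, with at least 2 sorts for each genotype, so p-values reflect how arrays of pooled cells vary, not how mice vary. The labels do not say which exons the knockout alleles lack, which antibodies made up the lineage gate, or whether KIT, CD93 or CD45 was gated. Array medians lay between 14.1 and 15.4 in linear intensity. The hybridization controls, bacterial transcripts added before hybridization, averaged 10.3 on the log2 scale on both WT 2 and HEB_KO 1. They averaged 11.4 on WT 1, 11.6 on HEB_KO 2 and 11.5 to 12.6 on the E2A_KO arrays, all of which exceeded both WT arrays. The targeted transcript was lowest in the genotype labelled as lacking it, with Tcf3 at 3.99 ± 0.24 (log2 intensity, SD, n = 4) in E2A_KO against 7.87 ± 0.15 (n = 2) in WT, and Tcf12 at 6.79 ± 0.43 (n = 2) in HEB_KO against 8.81 ± 0.06 (n = 2) in WT.

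Cd93 was the gene of the 5 that changed. Against WT its log2 intensity fell by 1.34 in E2A_KO cells and differed by -0.05 in HEB_KO cells. Kit differed by -2.08 in E2A_KO cells, with a wider spread, and did not pass the threshold. Flt3, the receptor on which the cells were selected, differed by -0.24 and 0.21 in the knockouts. Ly6d, the marker the cells were selected against, differed by about 4 log2 units between the WT arrays and between the HEB_KO arrays. Each difference was tested with limma across 11957 genes at a Benjamini-Hochberg adjusted p of 0.05, and 1 of the 5 genes passed in E2A_KO against WT, where 0.443% of all genes did and 0.393% did so as lower; 3 of the 5 had an unadjusted p under 0.05, as had 13.4% of all genes. In HEB_KO against WT limma called 0 of the 5, with 0 at an unadjusted p under 0.05, where it called 0% of all genes and 2.61% had such a p. The targeted gene Tcf12 differed by -2.01 in that comparison and did not pass either (limma adjusted p = 0.328). In E2A_KO against HEB_KO limma called 0 of the 5, with 2 at an unadjusted p under 0.05, against 0.117% of all genes called and 16.5% with such a p. These are bulk samples, so fewer cells that carry a transcript and less of it in each cell cannot be told apart.

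**Figure D1:**
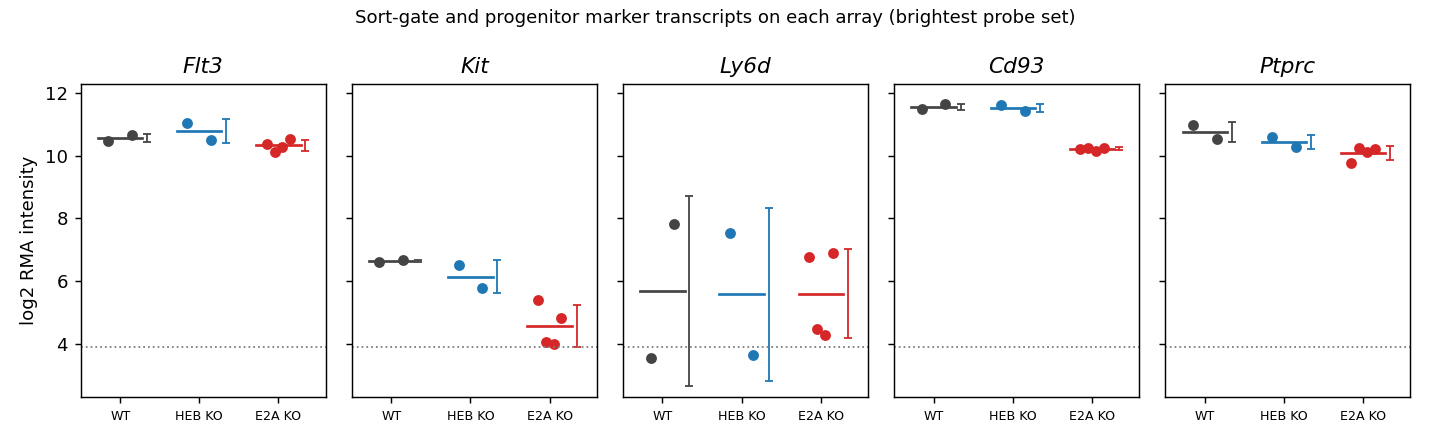
Log2 RMA intensity (y axis) of the brightest probe set of each gene on every array, by genotype (x axis); points are arrays, horizontal lines group means, bars ± 1 SD beside the points, and the dotted line the mean of the 8 array medians. The 4 E2A_KO arrays sit between 10.16 and 10.26 for Cd93, below all WT and HEB_KO arrays, while the Ly6d values spread widely within each genotype.

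Flt3 was the steadiest of the receptors. It read 10.47 and 10.66 (log2 intensity) on the WT arrays, 11.05 and 10.50 on the HEB_KO arrays and 10.38, 10.12, 10.27 and 10.53 on the E2A_KO arrays. As for Cd93 and Ptprc at their brightest probe sets, all 8 values lay above the 75th percentile of their array. The Flt3 values of the genotypes overlapped. The means were ordered E2A_KO (10.33 ± 0.17, SD, n = 4), WT (10.57 ± 0.14, n = 2) and HEB_KO (10.77 ± 0.38, n = 2), and no neighbours in that order differed beyond their spread. The log2 difference from WT was -0.24 in E2A_KO cells (95% interval -0.77 to 0.29, limma adjusted p = 0.669). In HEB_KO cells it was 0.21 (95% interval -0.40 to 0.82, limma adjusted p = 1). A loss of more than 0.77 log2 units in E2A_KO cells, or 0.40 in HEB_KO cells, lies outside these intervals, and smaller changes do not.

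Kit followed another course. At its brighter probe set, 1452514_a_at, it read 6.61 and 6.66 in WT, 6.50 and 5.77 in HEB_KO, and 5.38, 4.05, 3.98 and 4.81 in E2A_KO cells. Every E2A_KO array lay below every WT and HEB_KO array, and E2A_KO 2 and E2A_KO 3 came close to the array medians of 3.92 and 3.95, where the array measures a fall only in part. The means were 4.55 ± 0.67 (SD, n = 4) in E2A_KO, 6.14 ± 0.52 (n = 2) in HEB_KO and 6.64 ± 0.04 (n = 2) in WT cells. The difference of E2A_KO from WT was -2.08 (4.24-fold, SE 0.41, 95% interval -3.01 to -1.15), and limma's adjusted p of 0.0823 did not pass. Of all genes 15.4% had their E2A_KO arrays all below their WT arrays, as had 3 of the 5 here, Kit, Cd93 and Ptprc. Against HEB_KO cells the E2A_KO difference was -1.58 (SE 0.41, limma adjusted p = 0.152), and the arrays did not overlap for Kit, Cd93 and Ptprc, as for 21.6% of all genes. HEB_KO differed from WT by -0.50 (95% interval -1.57 to 0.58, limma adjusted p = 1). Both HEB_KO arrays lay just below the WT arrays, which held for 11.4% of all genes. Without E2A_KO replicate 1, the array highest in Kit among its group, the difference from WT was -2.36 and passed (limma adjusted p = 0.0494). This was the only pass among 19 alternatives, and in the other 18 Kit was not called (limma adjusted p up to 0.618).

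The dimmer Kit probe set, 1415900_a_at, did not follow. It read 4.73 and 4.52 in WT, 4.17 and 5.28 in HEB_KO and between 4.01 and 4.98 in E2A_KO cells, so that the genotypes overlapped. The WT values lay only 0.84 and 0.66 log2 units above their array medians, where the array measures a fall only in part. The E2A_KO difference there was -0.09 (SE 0.36, limma adjusted p = 0.933 over 45037 probe sets), and the values of both Kit probe sets had a Pearson r of 0.23 over the 8 arrays. The mean over both gave -1.09 in E2A_KO against WT (limma adjusted p = 0.176).

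As E proteins bind the letters CANNTG, the sequences just upstream of the receptor genes are shown for Flt3, whose arrays overlapped between genotypes, and for Kit, whose E2A_KO arrays lay below the rest at its brighter probe set. They are the 250 bases before the RefSeq transcript start on GRCm38.p6, written 5′ to 3′ on the gene's strand, with matches to CANNTG in capitals: Flt3 at chr5:147400490-147400739 on the minus strand, and Kit at chr5:75574737-75574986 on the plus strand.
Flt3: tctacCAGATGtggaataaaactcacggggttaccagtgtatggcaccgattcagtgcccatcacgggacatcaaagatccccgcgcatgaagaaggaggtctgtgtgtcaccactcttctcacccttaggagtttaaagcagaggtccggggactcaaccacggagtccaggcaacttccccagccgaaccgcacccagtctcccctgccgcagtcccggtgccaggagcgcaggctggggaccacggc
Kit: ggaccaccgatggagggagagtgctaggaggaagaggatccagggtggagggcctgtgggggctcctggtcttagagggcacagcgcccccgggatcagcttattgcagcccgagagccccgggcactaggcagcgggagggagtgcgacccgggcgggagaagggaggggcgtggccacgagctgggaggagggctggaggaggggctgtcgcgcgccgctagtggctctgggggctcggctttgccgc
The motif reads the same on both strands in its fixed letters. Flt3 had 1 match, CAGATG, and Kit had 0, while 66.2% of 32851 such windows of the RefSeq table held at least 1. Neither held CAGCTG (13% of windows) or CAGGTG on either strand (17.2% of windows), both forms of the same motif. A match is a description of letters and not a bound site, and its absence speaks only of this window. Ptprc had 2 RefSeq starts with 0 and 2 matches in the 250 bases before them. Cd93 and Ly6d have no entry in the table used.

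The other genes of FLT3 and KIT signalling were measured from a list of 24, of which 22 were named on the array and 21 tested. With limma 0 rose and 0 fell in E2A_KO against WT, 6 of the 21 had an unadjusted p under 0.05, against 13.4% of all genes, and 14 were negative (median -0.32, against -0.05 over all genes). The smallest p-values were those of the sister receptors. Pdgfrb, a platelet-derived growth factor receptor, read 9.77 and 9.48 in WT, 9.53 and 9.28 in HEB_KO, and 8.09, 6.10, 7.87 and 7.48 in E2A_KO cells, a difference from WT of -2.24 (SE 0.49, limma adjusted p = 0.103). Csf1r, the receptor of macrophage colony-stimulating factor, differed by -1.36 (SE 0.32, limma adjusted p = 0.116). In HEB_KO against WT the list had 0 called and 1 gene at an unadjusted p under 0.05, against 2.61% of all genes. That gene was Cblb, a ubiquitin ligase that restrains receptor signalling (-1.19, SE 0.42). In E2A_KO against HEB_KO the list had 0 called and 8 at an unadjusted p under 0.05, against 16.5% of all genes, with a median of -0.45 against -0.16 over all genes. Cblb (1.67, SE 0.36) and Pdgfrb (-2.02, SE 0.49) had the smallest p-values there.

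Cd93 was among the brightest of the probe sets examined and set E2A_KO cells apart at several of them. At 1456046_at, its brightest, it read 11.49 and 11.63 in WT, 11.61 and 11.42 in HEB_KO, and 10.21, 10.26, 10.16 and 10.25 in E2A_KO cells. The E2A_KO values spanned 0.10 log2 units and lay more than 1 unit below the lowest of the other arrays, while WT and HEB_KO overlapped. The means were 10.22 ± 0.04 (SD, n = 4) in E2A_KO, 11.52 ± 0.14 (n = 2) in HEB_KO and 11.56 ± 0.10 (n = 2) in WT cells. Cd93 fell in E2A_KO against WT by 1.34 (2.54-fold, SE 0.19, limma adjusted p = 0.0273). Against HEB_KO the difference was -1.30 (SE 0.19), with a limma adjusted p of 0.0576 that did not pass. HEB_KO differed from WT by -0.05 (95% interval -0.54 to 0.45, limma adjusted p = 1).

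The call on Cd93 rests on a small spread and few arrays. It was lost in 12 of 19 alternatives, among them without WT replicate 2 (-1.27, limma adjusted p = 0.289), without WT replicate 1 (-1.42, limma adjusted p = 0.153) and without each HEB_KO or E2A_KO array other than E2A_KO 3 (limma adjusted p from 0.0578 to 0.0640). The difference stayed between -1.42 and -1.20 in all 19, with limma adjusted p from 0.00194 to 0.519. With the level of the hybridization controls as a covariate it was -1.21 (limma adjusted p = 0.435). All E2A_KO arrays exceeded both WT arrays in these controls, so that fit cannot fully tell their level from genotype.

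Other probe sets of Cd93 differed by more. At 1419589_at it read 10.30 and 10.83 in WT, 10.92 and 10.68 in HEB_KO, and 8.78, 8.89, 8.36 and 8.78 in E2A_KO cells, again with no overlap. The difference from WT of -1.86 (SE 0.22) passed over all 45037 probe sets (limma adjusted p = 0.0430), as did that of 1456046_at there (limma adjusted p = 0.0370). These were 2 of the 11 probe sets examined, where 0.0822% of all probe sets were called. At 1441907_s_at it read 7.80 and 8.11 in WT, 7.75 and 6.59 in HEB_KO, and 5.85, 5.26, 5.95 and 6.05 in E2A_KO cells, and the difference of -2.18 (SE 0.35) did not pass (limma adjusted p = 0.101). HEB_KO 2 lay between the groups at this probe set, and HEB_KO differed from WT by -0.79 (SE 0.40, limma adjusted p = 1). Over the 8 arrays the brightest probe set had a Pearson r of 0.99 with 1419589_at and 0.91 with 1441907_s_at, which mostly restates the gap between genotypes.

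The dimmest Cd93 probe sets carried little of this. At 1449521_at the genotypes overlapped and E2A_KO ranged from 3.66 to 5.83, with a difference from WT of -0.97 (SE 0.57, limma adjusted p = 0.586). At 1441908_x_at, which was designed from the same transcript accession as 1441907_s_at, all 8 arrays lay between 4.06 and 4.94 and the difference was 0.33 (SE 0.23, limma adjusted p = 0.620). Of the 11 probe sets of the 5 genes, 5 had all E2A_KO arrays below all WT arrays, 3 of them of Cd93, where 8.63% of all probe sets had this.

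**Figure D2:**
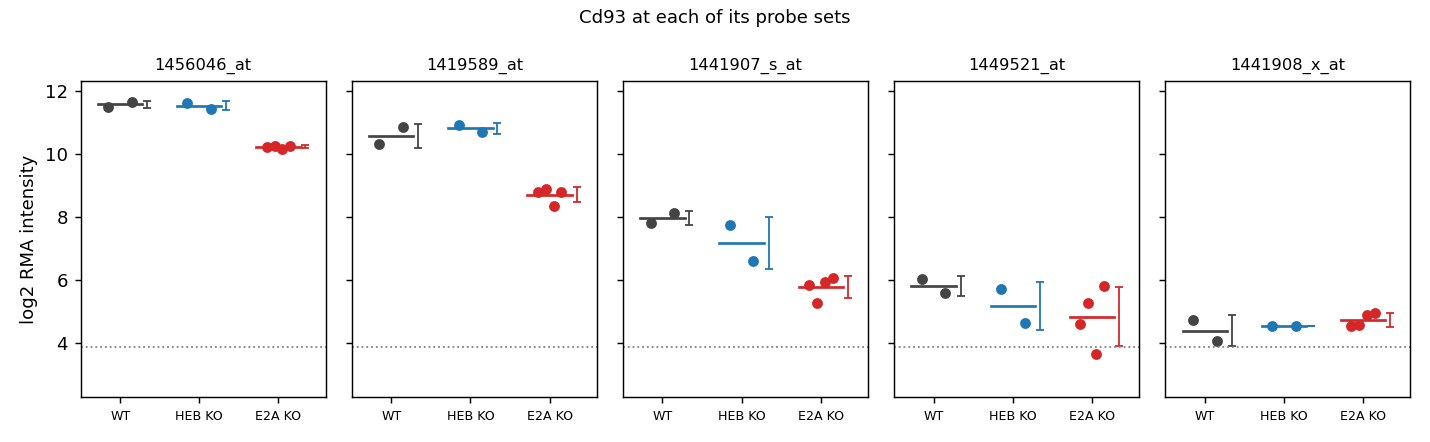
Log2 RMA intensity (y axis) of Cd93 at each of its 5 probe sets on every array, by genotype (x axis); points are arrays, lines group means, bars ± 1 SD and the dotted line the mean of the array medians. The 4 E2A_KO arrays lie below all others at the 3 brighter probe sets and overlap them at the 2 dimmer ones.

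Relatives of CD93 gave no call. Of 10 genes listed for the CD93 lectin family, its partners and the complement component C1q, all were named on the array and 6 were tested. In E2A_KO against WT limma called 0 of them, and the median was 0.08, against -0.05 over all genes. Of the 6, 1 had an unadjusted p under 0.05, against 13.4% of all genes. That gene was Cd248, a stromal lectin of the same family, at 0.47 (SE 0.20), and Mmrn2, an extracellular matrix ligand of CD93, differed by 0.44 (SE 0.24). In HEB_KO against WT 0 were called and 2 had an unadjusted p under 0.05, against 2.61% of all genes. They were Thbd (thrombomodulin, 1.21, SE 0.47) and Gipc1, an adaptor of the CD93 tail (0.87, SE 0.35). The same genes had the smallest p-values in E2A_KO against HEB_KO (-1.40, SE 0.41, and -0.72, SE 0.30), with 0 of 6 called and 2 at an unadjusted p under 0.05, against 16.5% of all genes.

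Ly6d did not follow genotype. It read 3.53 and 7.83 on the WT arrays, 7.52 and 3.63 on the HEB_KO arrays, and 6.75, 4.48, 4.26 and 6.88 on the E2A_KO arrays. WT 1 and HEB_KO 2 lay below the median of their array, and WT 2, HEB_KO 1, E2A_KO 1 and E2A_KO 4 lay above its 75th percentile, although all cells had been gated as LY6D-negative. E2A_KO 2 and E2A_KO 3 lay between, by 0.56 and 0.32 log2 units above the median of their array. The group means differed by far less than their SDs, at 5.68 ± 3.04 (n = 2) in WT, 5.59 ± 1.42 (n = 4) in E2A_KO and 5.57 ± 2.75 (n = 2) in HEB_KO cells. The differences from WT were -0.09 in E2A_KO (95% interval -3.25 to 3.08, limma adjusted p = 0.982) and -0.11 in HEB_KO cells (95% interval -3.77 to 3.55, limma adjusted p = 1). The difference between E2A_KO and HEB_KO cells was 0.02 (95% interval -3.15 to 3.19, limma adjusted p = 0.996). Changes of 3 log2 units in either direction fall inside these intervals, so a change in Ly6d of that size was not detectable with these arrays. The sign turned with the arrays used, to 2.07 in E2A_KO against WT without WT replicate 2, and to 2.05 in HEB_KO against WT without the same array.

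The spread of Ly6d within genotypes was among the widest measured. Its residual SD of 2.14 log2 units was exceeded by 4 of 11957 genes, against a median of 0.33. The 4 were Fos (3.25), the sex-chromosome genes Xist (2.99) and Eif2s3y (2.44), and S100a8 (2.37). The sex of the pooled mice was not analysed here. By residual SD 14.7% of genes varied more than Kit (0.57), 70.9% more than Ptprc (0.25), 76.4% more than Flt3 (0.23) and 99.0% more than Cd93 (0.08).

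Genes listed for the LY6D-positive stage were set beside it from a list of 14, of which 12 were tested. Not all were low where Ly6d was low: Dntt, the terminal transferase gene, read 13.51 on WT 1 and 13.47 on HEB_KO 2. Rag1, which cuts antigen receptor segments, read 5.98 and 9.57 in WT, 8.49 and 5.81 in HEB_KO, and 4.46, 3.41, 4.13 and 3.63 in E2A_KO cells. Vpreb1, part of the surrogate light chain, read 3.78 and 8.42, 6.67 and 4.53, and 4.06, 3.82, 4.64 and 3.90 in the same order, and Ebf1, a B-lineage transcription factor, read 4.36 and 6.90, 5.79 and 3.46, and 2.32 to 3.06 on the E2A_KO arrays. WT 2 and HEB_KO 1 were thus high in Rag1, Vpreb1 and Ebf1 together with Ly6d. Dntt did not share this, at 13.52 on WT 2 and 13.24 on HEB_KO 1. E2A_KO 1 and E2A_KO 4 were high in Ly6d and low in Rag1, Vpreb1 and Ebf1. Rag1, Vpreb1 and Ebf1 were picked for this comparison after their values were seen. Over the 8 arrays, which differ in genotype as well, Pearson's r with Ly6d was 0.64 for Vpreb1, 0.61 for Igll1, 0.48 for Rag1, 0.45 for Ebf1 and -0.27 for Pax5. For the other genes tested from the list r ran from -0.16 (Dntt) to 0.59 (Cd79b). The hybridization controls were lowest on WT 2 and HEB_KO 1 and stood at 11.5 on E2A_KO 1 and 12.4 on E2A_KO 4. The part that LY6D-positive cells within the gate, the sort or the array run had in the Ly6d signal was not tested.

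**Figure D3:**
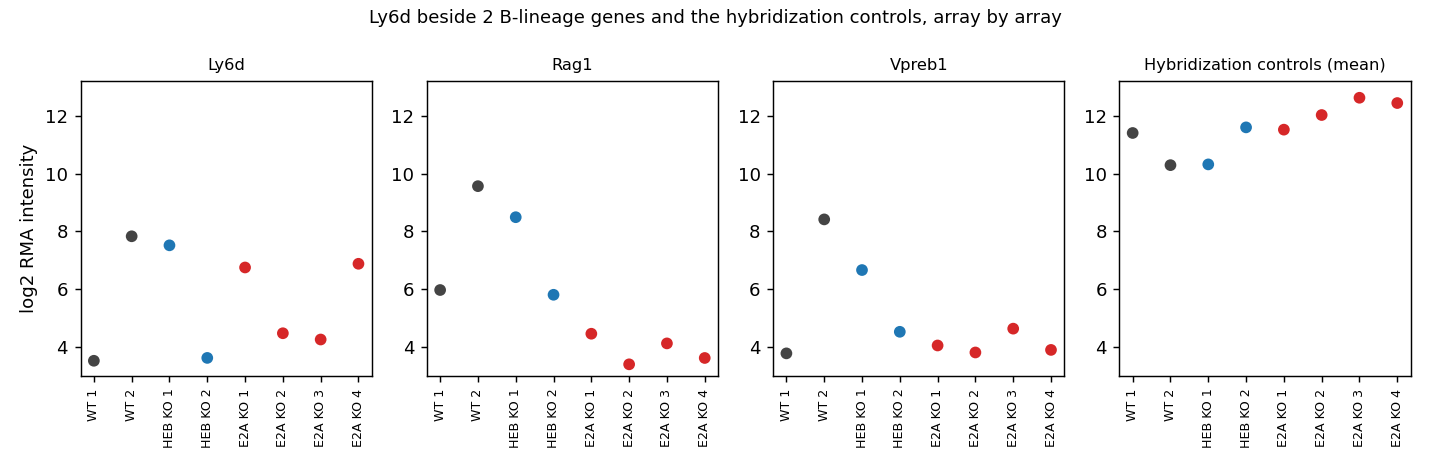
Log2 RMA intensity (y axis) of Ly6d, Rag1, Vpreb1 and the mean of the hybridization controls on each of the 8 arrays (x axis), coloured by genotype; each point is 1 array. WT 2 and HEB_KO 1 are high in Ly6d, Rag1 and Vpreb1 and lowest in the controls, whereas E2A_KO 1 and E2A_KO 4 are high in Ly6d (6.75 and 6.88) and low in Rag1 and Vpreb1.

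As a group these 12 genes had a median of -1.19 in E2A_KO against WT, against -0.05 over all genes. Of them 1 fell, against 0.393% of all genes. All E2A_KO arrays lay below the WT arrays for 6, against 15.4% of all genes. Foxo1, whose product acts with EBF1 at the start of the B-cell programme, was the one that fell (-2.19, SE 0.35, limma adjusted p = 0.0416). In HEB_KO against WT limma called 0, with 0 at an unadjusted p under 0.05, against 0% and 2.61% of all genes. The median was -0.24, against 0.09 over all genes. There Cd79b, a signalling chain of the B-cell receptor, differed by 0.41 (SE 0.33) and the adaptor Blnk by -0.75 (SE 0.64). In E2A_KO against HEB_KO limma called 0, with 6 at an unadjusted p under 0.05, against 16.5% of all genes, led by Foxo1 (-1.80, SE 0.35) and Blnk (-2.49, SE 0.56).

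Other members of the LY6 family gave no call. Of 17 listed, 12 were named on the array by a probe set of their own and 7 were tested. In each of the 3 comparisons limma called 0 and 0 had an unadjusted p under 0.05. Of all genes 0.443% were called in E2A_KO against WT, 0% in HEB_KO against WT and 0.117% in E2A_KO against HEB_KO. In that order 13.4%, 2.61% and 16.5% of all genes had such an unadjusted p. In E2A_KO against WT the smallest p-values were those of Gpihbp1, which carries lipoprotein lipase across endothelium (0.46, SE 0.24), and Slurp1, a secreted member (0.36, SE 0.20). Ly6e, the brightest of the family, read 9.43 and 10.00 in WT, 10.12 and 9.80 in HEB_KO, and 9.54, 8.92, 8.51 and 9.90 in E2A_KO cells, with the genotypes overlapping.

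Ptprc had lower means in both knockouts, and neither difference passed. At 1422124_a_at it read 10.98 and 10.53 in WT, 10.60 and 10.27 in HEB_KO, and 9.76, 10.25, 10.11 and 10.22 in E2A_KO cells, always above the 75th percentile of the array. The E2A_KO arrays lay below the others, but only by a narrow margin between E2A_KO 2 and HEB_KO 2. The means were ordered E2A_KO (10.09 ± 0.22, SD, n = 4), HEB_KO (10.43 ± 0.23, n = 2) and WT (10.75 ± 0.32, n = 2), and neighbours in that order did not differ beyond their spread. The difference of E2A_KO from WT was -0.67 (1.59-fold, SE 0.24, 95% interval -1.22 to -0.12) and did not pass (limma adjusted p = 0.290). HEB_KO differed from WT by -0.32 (95% interval -0.96 to 0.31, limma adjusted p = 1), and E2A_KO from HEB_KO by -0.35 (95% interval -0.90 to 0.20, limma adjusted p = 0.489). At the second probe set, 1440165_at, WT 1 (7.41) and E2A_KO 3 (7.04) stood above the other arrays (4.69 to 5.99), and the E2A_KO difference of -0.82 (SE 0.61) did not pass (limma adjusted p = 0.644). These values do not tell B220 from the shorter isoforms, since the exons that the probe sets read were not analysed here.

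CD45 acts on the Src-family kinases, and a list of 15 genes held these kinases with their regulators, of which 12 were named on the array and tested. In E2A_KO against WT limma called 0, with 3 at an unadjusted p under 0.05, against 13.4% of all genes. The median was -0.14, against -0.05 over all genes. Lgals1, a galectin that binds CD45 (1.38, SE 0.42), and Ptpn22, a phosphatase of these kinases (-0.67, SE 0.21), had the smallest p-values. In HEB_KO against WT limma called 0, with 0 at an unadjusted p under 0.05, against 0% and 2.61% of all genes. Ptpn22 (0.28, SE 0.24) and Ptpra, a related receptor phosphatase (0.52, SE 0.46), came first. In E2A_KO against HEB_KO limma called 0, with 5 at an unadjusted p under 0.05, against 16.5% of all genes. Ptpn22 (-0.95, SE 0.21) and Pag1, which brings the inhibitory kinase CSK to the membrane (-1.12, SE 0.36), came first there.

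**Figure D4:**
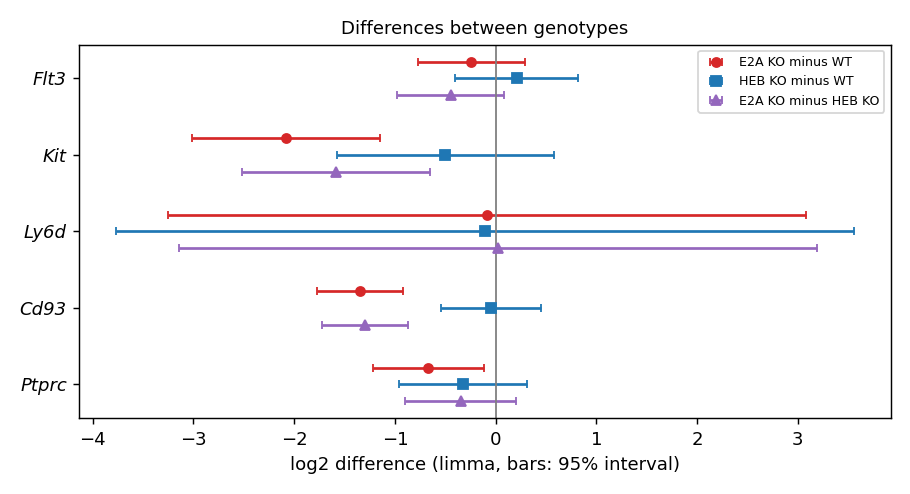
Log2 differences between genotypes (x axis) for the brightest probe set of the 5 genes (y axis), with limma's 95% intervals as bars and 1 marker shape for each comparison. In E2A_KO against WT the intervals of Cd93, Kit and Ptprc lie clear of 0, as do those of Cd93 and Kit in E2A_KO against HEB_KO, the intervals of Flt3 cross it, and those of Ly6d span about 6 to 7 log2 units.

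The remaining positive gate marker was CD127. Its gene Il7r stayed above the 75th percentile on all 8 arrays, at 10.51 and 10.91 in WT, 10.88 and 10.50 in HEB_KO, and 8.56, 7.89, 8.73 and 9.04 in E2A_KO cells, and fell by 2.15 against WT (SE 0.32, limma adjusted p = 0.0330). In the fit over all probe sets the same probe set did not pass (limma adjusted p = 0.0754), nor did the second one of Il7r (-1.69, limma adjusted p = 0.173). The transcripts of FLT3 and CD127 thus both remained present in every genotype, with overlapping Flt3 values and lower Il7r in E2A_KO cells. Surface protein was not measured on these arrays. Among 14 tested genes of other progenitor surface markers, 2 fell in E2A_KO against WT, Il7r and Ccr9, a chemokine receptor of thymus-seeding cells (-5.28, SE 0.42, limma adjusted p = 0.00334), and 0 rose. Of all genes 0.393% fell and 0.443% were called in either direction. The median of the 14 was -0.23, against -0.05 over all genes. Limma called 0 of the 14 in HEB_KO against WT, with 1, Ccr9 (-1.40, SE 0.48), at an unadjusted p under 0.05, against 2.61% of all genes. In E2A_KO against HEB_KO limma called 1, against 0.117% of all genes, Ccr9 again (-3.88, SE 0.42, limma adjusted p = 0.0372).

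Markers of other blood cell lineages were mostly dim, while the labels do not say which of these cells the lineage gate removed. Among NK-cell markers Nkg7 (log2 intensity 8.18 to 9.72) and Klrd1 (5.74 to 8.80) were brighter. Of 4 mature B-cell markers on the array 0 or 1 lay above the array median on any array, and Ms4a1, which encodes CD20, lay between 2.73 and 3.24. Of 7 T-cell markers 3 or 4 lay above the median, with summed linear intensities of 114 to 141 in WT, 133 to 138 in HEB_KO and 118 to 136 in E2A_KO cells. NK-cell markers summed to 648 to 1140, 783 to 1026 and 696 to 789 in that order, erythroid markers to 58.7 to 82.6, 60.3 to 73.8 and 69.0 to 276, dendritic cell markers to 114 to 134, 110 to 119 and 100.3 to 225, and megakaryocyte and mast cell markers to 120.2 to 158, 136 to 185 and 170.2 to 260. Granulocyte and monocyte markers, which include cells that carry CD93, were brighter. Their 7 genes summed to 1919 and 2661 in WT, 3722 and 4994 in HEB_KO and 2273 to 4561 in E2A_KO cells. Mpo, the myeloperoxidase gene of granulocyte precursors, was by far the brightest of them and carried most of these sums, at a log2 intensity of 10.84 and 11.23 in WT, 11.66 and 11.59 in HEB_KO and 11.10 to 12.13 in E2A_KO cells. The mean log2 intensity of the 7 genes ran otherwise, at 4.73 and 5.79 in WT, 6.45 and 7.68 in HEB_KO and 4.98, 4.70, 6.77 and 4.59 in E2A_KO cells. S100a8, a neutrophil calcium-binding protein, read 7.66 and 9.84 in HEB_KO and 8.63 in E2A_KO 3 against 3.11 to 6.87 elsewhere. E2A_KO 3 and HEB_KO 2 were the highest of their genotypes in S100a8. At the brightest Cd93 probe set they were the lowest of their genotypes, at 10.16 and 11.42. The E2A_KO arrays there ran only from 10.16 to 10.26. WT ran the other way, with WT 2 above WT 1 in S100a8 (6.87 against 3.35) and in Cd93 (11.63 against 11.49). The part of such cells in the levels of Cd93, Kit and Ptprc was not tested. Of these 7 lists few genes were tested: 1 mature B-cell, 4 T-cell, 3 NK-cell, 2 erythroid and 3 dendritic cell markers. The other 2 lists had 5 megakaryocyte and mast cell and 6 granulocyte and monocyte markers tested. Limma called 0 genes in all 3 comparisons. The count at an unadjusted p under 0.05 was 0 in E2A_KO against WT for every list, against 13.4% of all genes. In HEB_KO against WT it was 2 among granulocyte and monocyte markers, Ltf (2.87, SE 0.85) and Camp (2.80, SE 1.06), and 0 in the other lists, against 2.61% of all genes. In E2A_KO against HEB_KO it was 4 among granulocyte and monocyte markers and 1, Cd5, among T-cell markers, against 16.5% of all genes.

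The genes with the profile most like that of each marker over the 8 arrays were found by Pearson's r of log2 values among the 11957 tested genes. For Cd93 they were Nabp1, Akna and Dipk1b (r of 0.99 each), with 270 genes above an r of 0.9. For Kit they were Tsacc (r of 0.996), Eid1 and D930003E18Rik (r of 0.98 each), with 243 genes above 0.9. Of these 6 named genes, all but D930003E18Rik had every E2A_KO array below every WT and HEB_KO array. In D930003E18Rik, E2A_KO 1 (5.15) lay above HEB_KO 2 (5.06). For the 6 genes r was 0.95 or more without the 2 arrays farthest from the median. That step kept arrays of E2A_KO and of the other genotypes, so it could not remove the difference between them. For Flt3 they were Ndufa8 (r of 0.97), Trabd and Pnpla2 (r of 0.96 each), with 120 genes above 0.9. For Ptprc they were Vps50 (r of 0.96), Afm and Entpd5 (r of 0.95 each), where 18 genes passed 0.9 and r fell to between 0.80 and 0.84 without WT 1 and E2A_KO 1. For Ly6d they were Dcun1d3 (r of 0.97), Ets2 and Chdh (r of 0.94 each), with 19 genes above 0.9. Ets2 read 4.66 and 6.33 in WT, 6.20 and 4.36 in HEB_KO, and 5.89, 4.74, 4.83 and 5.24 in E2A_KO cells, high on the same 4 arrays as Ly6d. All these profiles share the same arrays, genotypes and normalization.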

How the data were processed

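RNA of LY6D-negative common lymphoid progenitors was hybridized to 1-colour Affymetrix arrays, 8 in all. The deposited table gives 1 intensity for each probe set and array, made by the authors with RMA per the submitters' processing notes, while the sources used here do not give the RMA version or chip definition. The range of the values shows a linear scale; they were converted to log2 and not renormalized. Per the labels' protocols the RNA was amplified by a small sample protocol with a further round.

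Of 45101 probe sets 64 were controls, 34945 named 1 gene, 932 several and 9160 none in the platform annotation; 0 symbols needed updating against RefSeq. Each gene was represented by its brightest probe set and tested if that lay above the array median on at least 2 arrays (11957 of 18193 genes). All 5 genes and all 11 of their probe sets passed. Genotype means were fitted in limma 3.58.1 (R 4.3.3) over the 8 arrays together, which leaves 5 residual degrees of freedom, and again to all 45037 probe sets that are no controls. Tests were two-sided, and p-values were adjusted by Benjamini-Hochberg over all features tested, with 0.05 as the threshold; "fell" and "rose" refer to this. The number of arrays limits precision, with a median SE of 0.28 for E2A_KO and 0.32 for HEB_KO against WT.

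The genes named were the 5 markers, Tcf3, Tcf12 and Il7r, from each list up to 4 called genes or else the 2 of smallest p, and the 3 genes most like each marker; not all list genes so chosen are printed. The genes and lists were chosen with earlier results of these data known. The fit was tested on simulated data. No arrays were identical. Alternatives were other filters, cyclic loess, median centring, averaging the probe sets of a gene, array weights, an eBayes step that is robust and allows a trend, only the genotypes compared, a replicate block, the hybridization controls as covariate and leaving out each array. Leaving out WT 2 and HEB_KO 1 together and a crossed pairing were chosen after seeing the data.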

Additional observations from a re-analysis of the deposited data

How the results depend on the processing

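Ptprc kept its direction and stayed above the threshold in all 19 alternatives of each comparison, as did Kit in HEB_KO against WT and in E2A_KO against HEB_KO, and Flt3 in E2A_KO against HEB_KO. Of the adjusted p-values below, all are from limma, and the cause of each change was not tested. The hybridization controls were higher on all E2A_KO arrays than on both WT arrays. Fits with them as covariate thus cannot fully tell their level from genotype. The fall of Cd93 in E2A_KO against WT lost its call with the hybridization control covariate (-1.21), the mean of all probe sets (-1.20, adjusted p = 0.0658), only the 2 genotypes compared (-1.34, adjusted p = 0.0609), the replicate block (-1.33, adjusted p = 0.147) and WT 2 and HEB_KO 1 both left out (-1.27, adjusted p = 0.519); leaving out 1 array gave -1.42 to -1.27. Against HEB_KO, Cd93 passed with array weights (-1.29, adjusted p = 0.0252), eBayes with trend and robust (-1.30, adjusted p = 0.00535), median centring (-1.39, adjusted p = 0.0427) and no filter (-1.30, adjusted p = 0.0404). Small differences turned sign: Cd93 in HEB_KO against WT (-0.14 to 0.052 leaving out 1 array), Flt3 in HEB_KO against WT (-0.064 without HEB_KO 1 to 0.48 leaving out 1 array) and Flt3 in E2A_KO against WT with the covariate (0.018). Kit in E2A_KO against WT ran from -2.36 to -1.89 leaving out 1 array, and was -1.38 with the covariate (adjusted p = 0.618). It passed in 1 of the 19 alternatives, without E2A_KO replicate 1. Against HEB_KO cells the E2A_KO difference in Kit was -0.94 with the covariate and -0.89 with the mean of all probe sets. Values that kept their sign also moved: leaving out 1 array, Kit in HEB_KO against WT ran from -0.87 (without HEB_KO 1) to -0.13 (without HEB_KO 2), and Ptprc from -0.55 (without WT 2) to -0.10 (without WT 1) in HEB_KO against WT, to -0.44 (without WT 1) in E2A_KO against WT and to -0.18 (without HEB_KO 1) in E2A_KO against HEB_KO. Flt3 in E2A_KO against HEB_KO ran from -0.72 (without HEB_KO 2) to -0.18 (without HEB_KO 1). Ly6d turned sign in E2A_KO against WT with array weights (0.22), the covariate (3.38) and WT 2 and HEB_KO 1 both left out (2.07), in HEB_KO against WT with the covariate (0.19) and both left out (0.10), and in E2A_KO against HEB_KO with median centring (-0.072). Leaving out 1 array moved it from -2.24 to 2.07, -2.26 to 2.05 and -1.92 to 1.97 in that order.

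The number of genes called in E2A_KO against WT, 53, became 120 with array weights, 91 with eBayes with trend and robust, 1 with the covariate, 26 with only the 2 genotypes compared, 12 with the replicate block and 0 with both arrays left out. Leaving out 1 array gave 2 (without WT 2) to 98 (without E2A_KO 3), with 7 without WT 1, 20 without E2A_KO 2 and 26 without either HEB_KO array. In E2A_KO against HEB_KO, 14 became 91, 42, 1, 6, 3 and 0 in the same order of settings and 1 to 21 leaving out 1 array. Of probe sets, 37 called in E2A_KO against WT became 0 with the replicate block and 2 to 65 leaving out 1 array. The 1 called in E2A_KO against HEB_KO became 0 with the block and 1 to 3 leaving out 1 array, and in HEB_KO against WT 0 to 1 were called leaving out 1 array. The median over all genes in E2A_KO against HEB_KO was -0.16, and -0.26 after median centring.

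The arrays share only a number across genotypes. WT and HEB_KO arrays of the same replicate number had deviations from their group means that correlated at -0.28, and a crossed pairing, chosen after seeing the data, called 0 genes in HEB_KO against WT. Where an alternative left 1 array in a group, that array is assumed to vary like the others. Kit and Ly6d lie near the array median on some arrays, where a low intensity bounds how large a fall can be measured.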
